A study of Mus musculus with 6 samples.

Results

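Cbx7-only regions are stretches of the genome where Cbx7 was listed as bound and Ring1B, RYBP and Suz12 were not. The peaks of 4 lists, 1 list for each protein, were merged into regions wherever they shared at least 1 bp, and a region was counted here when it held Cbx7 peaks and no peak of the other 3 lists. This gave 201 of 13390 merged regions (1.50%), 201 of the 2550 regions with any Cbx7 peak (7.88%), and 201 of the 2754 Cbx7 peaks (7.30%, 95% Wilson interval 6.39 to 8.33%). Each of the 201 regions was a single Cbx7 peak. They were chosen by the presence and absence of called peaks, so that absence is not a result.

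The lists came from chromatin immunoprecipitation and sequencing (ChIP-seq), which maps where a protein sits on DNA, in wild-type E14Tg2A cells. E14Tg2A is a mouse embryonic stem cell line of the 129/Ola strain, here kept without feeder cells on gelatin, in serum with leukemia inhibitory factor. All libraries came from these untreated cells, with 1 library for each of Ring1B, Cbx7, Suz12 and RYBP, and 2 further libraries made with rabbit IgG were not analysed here. The lists hold positions only, so read depth and peak height are unknown, and with 1 library per protein no value below has a replicate check. A protein missing from a list at a site was not called there, which is not the same as unbound.

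Polycomb proteins keep developmental genes silent in embryonic stem cells through a pair of complexes. PRC2, which contains Suz12, trimethylates lysine 27 of histone H3, and Cbx7 reads that mark through its chromodomain. Cbx7 is the main Cbx protein of these cells and belongs to canonical PRC1, where it is joined to the ubiquitin ligase Ring1B. RYBP belongs to the variant PRC1 complexes, which also contain Ring1B but no Cbx protein. A Cbx7 peak away from both Ring1B and Suz12 therefore lies outside the usual pairing of this protein, and the question here was what such peaks look like and where they lie.

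Cbx7-only regions were narrow. Their median width was 619 bp (quartiles 504 and 721 bp), and the narrowest and widest were 183 and 6196 bp. The other 2553 Cbx7 peaks had a median of 2014 bp (quartiles 1511 and 2773 bp). Of the Cbx7-only regions, 179 (89.1%, 95% Wilson interval 84.0 to 92.7%) were at most 1000 bp wide, compared with 166 of the other Cbx7 peaks (6.50%, 5.61 to 7.53%). Regions held by another single protein were narrow as well, with medians of 670 bp for Ring1B only, 853 bp for Suz12 only and 1177 bp for RYBP only. A wide peak meets a neighbour more easily than a narrow one, so width is bound up with the way the regions were chosen and is given as a description, without a test.

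The change with width was steep. Of the 49 Cbx7 peaks up to 500 bp wide, 47 overlapped no other list (95.9%, 95% Wilson interval 86.3 to 98.9%). The share was 70.3% between 500 and 750 bp (111 of 158 peaks) and 15.2% between 750 and 1000 bp (21 of 138). Beyond that the class was rare, with 10 of 467 peaks between 1000 and 1500 bp, 3 of 643 between 1500 and 2000 bp and 9 of 1299 above 2000 bp (0.693%).

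**Figure D1:**
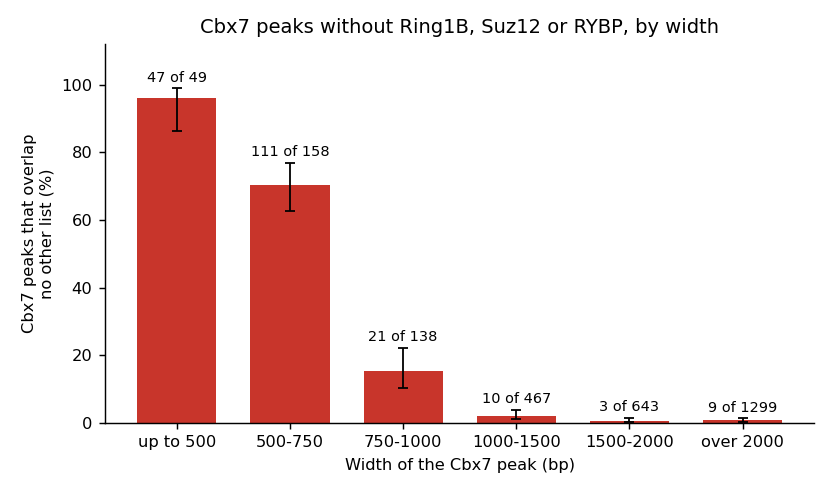
Share of Cbx7 peaks that overlapped no Ring1B, Suz12 or RYBP peak (vertical axis, %) in 6 ranges of Cbx7 peak width (horizontal axis, bp). Bars give the share, error bars the 95% Wilson interval and labels the counts; the share falls from 95.9% of peaks up to 500 bp to 0.693% of peaks over 2000 bp.

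Few Cbx7 peaks lay near the border of the rule. Just inside it, the Cbx7-only regions closest to another list left gaps of 39, 82 and 118 bp. Just outside it, the Cbx7 peaks with the least overlap shared 48 bp (chromosome 13 from 115890540 to 115891194, with Ring1B and Suz12), 207 bp (chromosome 2 from 116380030 to 116381991, with Ring1B) and 309 bp (chromosome X from 51100771 to 51101318, with Suz12). The first of these was the only one below 100 bp, and asking for 50% of the shorter peak to be shared gave 204 regions in place of 201. The number moved more with the peaks that the other lists keep. When the narrower peaks of the Ring1B, Suz12 and RYBP lists, those below the median of their own list, were left out, 413 Cbx7-only regions were found, at a median of 828 bp, and 53.8% of them were isolated as defined in the next paragraph. With fewer peaks listed, the number of regions can only rise and each distance can only stay or grow, by construction.

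Most Cbx7-only regions did not flank a Polycomb site. The distance to the nearest Ring1B or Suz12 peak ranged from 39 bp to 1971 kb, with a median of 72.8 kb (quartiles 19.7 and 223.6 kb). Only 26 of 201 (12.9%, 95% Wilson interval 8.98 to 18.3%) lay within 5 kb of a Ring1B or Suz12 peak, and 14 (6.97%) within 1 kb. At the other end, 67 regions (33.3%, 27.2 to 40.1%) were isolated, here meaning over 100 kb from every peak of the other 3 lists. Another 2 regions lay within 5 kb of a RYBP peak alone, and the remaining 106 (52.7%) stood between 5 and 100 kb from the nearest peak of another list.

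**Figure D2:**
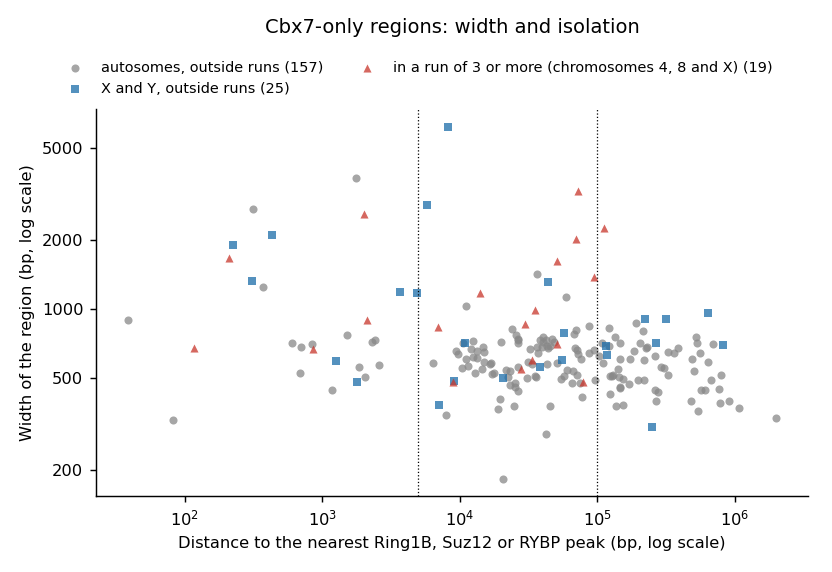
Each point is 1 of the 201 Cbx7-only regions, placed by its distance to the nearest Ring1B, Suz12 or RYBP peak (horizontal, bp, log scale) and its width (vertical, bp, log scale). Dotted lines mark 5 and 100 kb; most points lie right of 5 kb and below 1000 bp, and many of the wide regions are on X, Y or in runs of 3 or more neighbours.

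No single list was the usual neighbour. Suz12 was the nearest other list for 80 regions, Ring1B for 61 and RYBP for 60, counting a tie in 2 regions for Ring1B. The lists themselves hold 8054 Suz12, 6982 Ring1B and 6872 RYBP peaks, which is the same order. The median distance was 109.7 kb to the nearest Suz12 peak, 145.4 kb to the nearest Ring1B peak and 199.4 kb to the nearest RYBP peak, the last over 192 regions because no RYBP peak is listed on chromosome Y. The nearest other Cbx7 peak was 224.0 kb away at the median. For 100 regions (49.8%) the distances to Ring1B and to Suz12 differed by 1 kb or less, and for 46 of them the distance to Cbx7 also came within 1 kb of the Ring1B distance. Other Cbx7-only regions were left aside when the nearest merged region was sought. The nearest remaining region held RYBP only in 50 cases (24.9%) and Suz12 only in 44 (21.9%). It held Ring1B with Suz12 in 22 (10.9%) and Ring1B with Cbx7 and Suz12, the canonical Polycomb combination, in 21 (10.4%). Among all 13390 merged regions, the 201 included, these kinds made up 31.7%, 14.8%, 15.7% and 11.4%, in the same order. In all, for 45 of 201 (22.4%) this nearest region held Cbx7 together with another list. Regions with any Cbx7 peak were 2550 of the 13390 merged regions. Both of these totals include the 201, which could not be chosen as neighbours, so the shares are not on an equal footing.

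Peaks of the 4 lists around these regions were counted next. Within 1 Mb on either side of a Cbx7-only region the median was 4 Ring1B peaks (quartiles 2 and 8), 5 Suz12 peaks (3 and 10) and 3 RYBP peaks (0 and 8). Around Suz12-only regions the median was 8 Ring1B peaks (4 and 12) and 7 RYBP peaks (3 and 14), and around Ring1B-only regions it was 7 Suz12 peaks (4 and 12) and 6 RYBP peaks (2 and 12). RYBP-only regions had 9 Ring1B peaks (5 and 13) and 10 Suz12 peaks (6 and 15). The medians for Ring1B, Suz12 and RYBP were thus lower around Cbx7-only regions, and the median for Cbx7 was not. It was 4 Cbx7 peaks (2 and 6) around Cbx7-only regions, counting the region itself, 2 (1 and 4) around Ring1B-only regions, and 3 around both Suz12-only (1 and 5) and RYBP-only regions (1 and 4). The region itself adds 1 Cbx7 peak to the first of these counts and none to the others, so the Cbx7 medians are not on an equal footing. These ranges overlap widely and were not tested.

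The regions within 5 kb of Ring1B or Suz12 form the flanking group. Of these 26, 21 had such a peak within 5 kb on 1 side and 5 on both sides. The gap had a median of 850 bp and ran from 39 to 4877 bp. At the median they were 743 bp wide, while the 67 isolated regions measured 580 bp and the 106 in between 614.5 bp. Other Cbx7-only regions were not counted as neighbours here. The neighbours were modest in size, with a median width of 1194 bp (from 288 to 2779 bp), and 10 of 26 held Cbx7. By combination they were Suz12 only in 6 cases, Ring1B with Cbx7 in 5, Ring1B only in 4, Ring1B with Suz12 in 4, Cbx7 with Suz12 in 3, Ring1B with Cbx7 and Suz12 in 2 and Ring1B with RYBP and Suz12 in 2. Another Cbx7 peak lay within 5 kb of 16 of the 26 flanking regions (61.5%, 95% Wilson interval 42.5 to 77.6%) and of 6 of the 175 others (3.43%, 1.58 to 7.28%). Each of the 2553 Cbx7 peaks outside the class overlaps another list, so a region close to one tends to be close to that list too. The contrast is thus partly fixed by the rule and was not tested.

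The closest region shows what flanking means here. On chromosome 2 from 115900006 to 115900901 an 895-bp Cbx7 peak lay 39 bp from a Suz12 peak, 41 bp from a Ring1B peak and 32 bp from another Cbx7 peak, all parts of 1 region of 1391 bp. The next, on chromosome 14 from 49282572 to 49282901 (329 bp wide), lay 82 bp from Ring1B and 101 bp from Suz12, beside a region of 1101 bp that held both. The third, on chromosome 4 from 146797689 to 146798363, lay 118 bp from a Suz12-only region of 448 bp, with Ring1B 235.0 kb away. The fourth, on chromosome 8 from 19751676 to 19753340, was 210 bp from a Ring1B-only region of 1331 bp and 36.8 kb from the nearest Suz12 peak. The fifth, on chromosome Y from 1791322 to 1793223, was 226 bp from a region of Ring1B with Cbx7. Of these 5 regions, the first 2 thus bordered a site of Ring1B with Suz12, and the other 3 bordered a site with Suz12 or Ring1B but not both.

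The most isolated regions were all narrow. A 334-bp region of chromosome 18 lay 1971 kb from the nearest Suz12 peak. The next was on chromosome 14 from 93225798 to 93226167 (369 bp wide), 1063 kb from any other list. Then came chromosome 16 from 71120992 to 71121389 (397 bp, 906.5 kb), chromosome X from 122704733 to 122705427 (694 bp, 817.9 kb) and chromosome 15 from 41283182 to 41283696 (514 bp, 795.1 kb). Only the first 2 regions were over 1 Mb from every other list. For the regions of chromosomes 18, 14 and 15, the nearest site was a region of Ring1B with Cbx7 and Suz12.

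Distances were then compared with those of regions held by another single protein. All of these classes were chosen not to overlap the list that the distance is measured to, but the rule cut the lists unequally. It left 201 Cbx7-only regions from 2754 peaks and 795 Ring1B-only regions from 6982. For Suz12 it left 1984 regions from 8054 peaks, and for RYBP 4250 from 6872. The distances use the peaks that defined the classes, so the p-values below are descriptive and not independent evidence of different binding. Fisher's exact tests (two-sided, Benjamini-Hochberg adjusted over 7 tests, called below 0.05) compared the share of regions within 5 kb. They treat regions as independent although neighbours are not, and they describe these lists rather than replicate experiments.

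Cbx7-only regions lay beside Ring1B less often than Suz12-only regions did. A Ring1B peak was found within 5 kb of 19 of 201 Cbx7-only regions (9.45%, 95% Wilson interval 6.14 to 14.3%) and of 333 of 1984 Suz12-only regions (16.8%, 15.2 to 18.5%). The difference was -7.33 percentage points (95% interval -11.1 to -2.24, adjusted p = 0.008 in Fisher's exact test). At 50 kb the shares were 25.9% and 47.1%, a difference of -21.3 points (adjusted p = 3.1e-08, Fisher's exact test).

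Against RYBP-only regions the direction depended on the distance. Within 5 kb, 3.88% of the 4250 RYBP-only regions had a Ring1B peak, 5.57 points fewer than Cbx7-only regions (95% interval 2.19 to 10.4, with an adjusted p of 0.002 in Fisher's exact test). Within 50 kb the order turned, with 37.8% of RYBP-only and 25.9% of Cbx7-only regions (difference -11.9 points, adjusted p = 7.9e-04, Fisher's exact test). At 10 kb the difference was 2.21 points and not called (adjusted p = 0.294, Fisher's exact test). The call within 5 kb was also lost when only regions up to 1000 bp wide were compared (1.85 points, adjusted p = 0.345, Fisher's exact test), and the difference was -0.127 points when peaks within 1 kb were merged first (adjusted p = 1.000, Fisher's exact test). For Suz12 the shares within 5 kb were 9.45% of Cbx7-only and 4.54% of RYBP-only regions (4.91 points, 95% interval 1.53 to 9.79, with adjusted p = 0.006, Fisher's exact test). With merging within 1 kb this difference was 1.07 points (adjusted p = 0.558, Fisher's exact test), among regions up to 1000 bp wide it was 3.87 points (adjusted p = 0.054, Fisher's exact test), and at 50 kb it was -4.60 points (adjusted p = 0.246, Fisher's exact test).

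Compared with Ring1B-only regions, no difference in nearness to Suz12 was called. The shares within 5 kb were 9.45% and 14.3%, a difference of -4.89 points (95% interval -9.11 to 0.455, with adjusted p = 0.081, Fisher's exact test). That comparison was called, in the same direction, within 1 kb (-5.71 points, adjusted p = 0.022) and with overlap defined as 50% of the shorter peak (-7.07 points, adjusted p = 0.015), both by Fisher's exact test. It turned to 0.601 points with merging within 1 kb (adjusted p = 0.782, Fisher's exact test).

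Of the 3 other lists, RYBP had the smallest share of Cbx7-only regions with a peak within 5 kb. The closest RYBP peak to any Cbx7-only region lay 1188 bp away, and 5 of 201 regions (2.49%, 95% Wilson interval 1.07 to 5.69%) had one within 5 kb. This share was 8.72% for Suz12-only regions (difference -6.23 points, 95% interval -8.17 to -2.83, with adjusted p = 0.002, Fisher's exact test) and 7.67% for Ring1B-only regions (difference -5.19 points, -7.69 to -1.58, adjusted p = 0.008, Fisher's exact test). The RYBP list holds 24 peaks on X and none on Y, and without X and Y the differences were -6.00 and -5.14 points (adjusted p = 0.015 and 0.029 over 6 tests, Fisher's exact test). Merging peaks within 1 kb left -3.36 and -2.00 points, neither of them called (adjusted p = 0.125 and 0.483, Fisher's exact test).

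**Figure D3:**
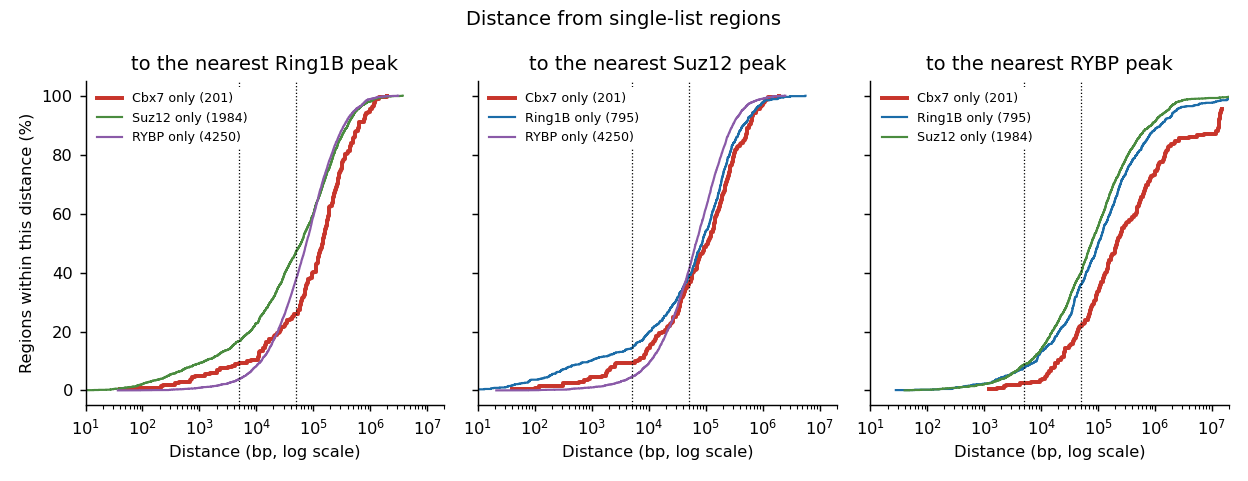
Cumulative share of regions (vertical, %) within a given distance (horizontal, bp, log scale) of the nearest Ring1B, Suz12 or RYBP peak, for regions held by Cbx7, Ring1B, Suz12 or RYBP only, with the number of regions in brackets. Dotted lines mark 5 and 50 kb; the Cbx7-only curve starts above the RYBP-only curve and crosses below it before 50 kb for both Ring1B and Suz12, and stays lowest for RYBP beyond 5 kb.

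Cbx7-only regions were spread over all chromosomes and made up the largest shares of Cbx7 peaks on the sex chromosomes. They made up 6.42% of the Cbx7 peaks of the autosomes (169 of 2634, 95% Wilson interval 5.54 to 7.42%), from 3.87% on chromosome 7 to 12.7% on chromosome 8. On X they were 23 of 107 Cbx7 peaks (21.5%, 14.8 to 30.2%), and on Y 9 of 13 (69.2%, 42.4 to 87.3%). The other lists hold only 3 Ring1B, 5 Suz12 and 0 RYBP peaks on Y. Cbx7 peaks on Y thus had few listed peaks to overlap, and what sets the share there was not tested. Chromosome X held 11.4% of Cbx7-only regions and 3.29% of the other Cbx7 peaks, a difference of 8.15 points (95% interval 4.38 to 13.3, with adjusted p = 9.0e-06, Fisher's exact test).

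Width moved together with the difference on X. Of the Cbx7 peaks of X, 32.7% were up to 1000 bp wide (35 of 107), compared with 11.5% of the autosomal ones (303 of 2634). Among Cbx7 peaks of that width, 17 of 35 on X (48.6%, 95% Wilson interval 33.0 to 64.4%) and 157 of 303 on autosomes (51.8%, 46.2 to 57.4%) overlapped no other list. X then held 9.50% of the Cbx7-only and 10.8% of the other Cbx7 peaks, a difference of -1.35 points (95% interval -7.98 to 5.13, with adjusted p = 0.723, Fisher's exact test), so the direction turned and the call was lost. Above 1000 bp, 6 of 72 Cbx7 peaks on X (8.33%, 3.88 to 17.0%) and 12 of 2331 on autosomes (0.515%, 0.295 to 0.898%) overlapped no other list, a contrast noticed in these data and not tested. The 6 on X are not separate sites. Those starting at 143707010 and 143708191 lie 3 bp apart, and those starting at 121209994 and 121291176 belong to 1 run, described below. The intervals treat them as independent.

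**Figure D4:**
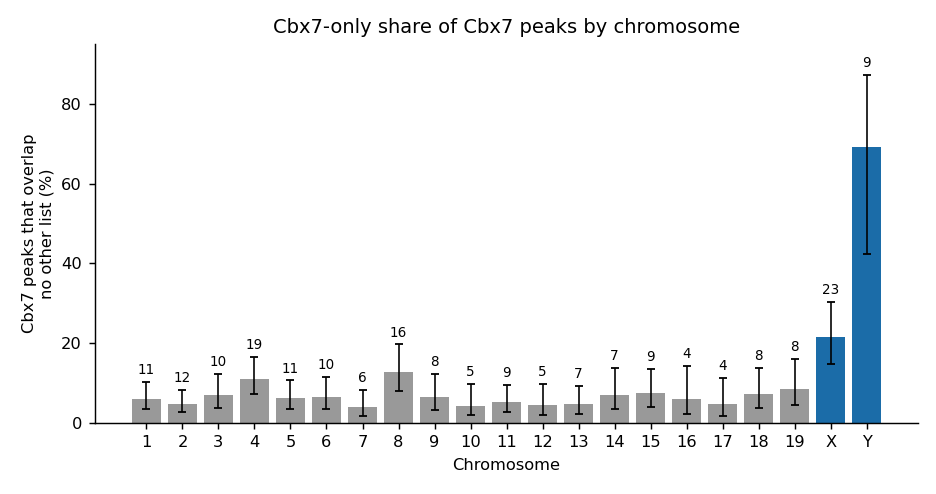
Share of the Cbx7 peaks of each chromosome that overlapped no other list (vertical, %), with 95% Wilson intervals as error bars and the number of Cbx7-only regions above each bar. X (21.5%) and Y (69.2%, of 13 peaks) stand above the autosomes, which lie between 3.87% and 12.7%. On Y the other lists hold only 3 Ring1B, 5 Suz12 and 0 RYBP peaks to overlap.

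Wide Cbx7-only regions were few and gathered on a few chromosomes. Of the 22 regions over 1000 bp wide, 6 lay on X, 5 on chromosome 8, 4 on Y and 3 on chromosome 4, and the other 4 on chromosomes 1, 2 and 13. Chromosomes 4, 8, X and Y together held 18 of these 22 and 67 of all 201 Cbx7-only regions. All 5 on chromosome 8 lay in the runs described below. The wide regions are therefore not all separate sites, and their placement was not tested. The widest was on chromosome Y from 2848622 to 2854818 (6.20 kb), 8.14 kb from a Suz12-only region of 790 bp. A second region of Y, from 2869554 to 2872374 (2.82 kb), lay on the other side of the same Suz12 peak at 5.80 kb. The second widest, on chromosome 1 from 85256374 to 85260062 (3.69 kb), was 1.77 kb from a Suz12-only region of 1307 bp and 324.2 kb from Ring1B. The third, on chromosome 8 from 19957152 to 19960389 (3.24 kb), had its nearest Suz12 peak at 72.8 kb and its nearest Ring1B peak at 166.3 kb. The fifth, on chromosome 2 from 116374847 to 116377560 (2.71 kb), lay 35 bp from a Cbx7 peak with Suz12 and 4.22 kb from Ring1B.

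Some Cbx7-only regions lay in runs. With gaps of up to 100 kb between neighbours, 5 runs of 3 or more regions were found on chromosomes 4, 8 and X, and together they held 19 regions. At the median, regions in runs were 893 bp wide and the other 182 were 603 bp wide, and 11 of the 19 were up to 1000 bp wide (57.9%, 95% Wilson interval 36.3 to 76.9%) compared with 168 of 182 (92.3%, 87.5 to 95.4%). Of the 19, 5 lay within 5 kb of Ring1B or Suz12 and 1 was over 100 kb from every other list.

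The longest run, on chromosome 4 from 146796954 to 147000306, spread 5 Cbx7-only regions over 203.4 kb, with 2 Suz12 peaks and no Ring1B or RYBP peak among them. On chromosome 8, 3 regions lay in 13.7 kb from 19742390 to 19756060, with 1 Ring1B peak between them. After a gap, 4 more followed from 19870124 to 19960389 (90.3 kb), interleaved with 2 Cbx7 peaks that each carried a Suz12 peak. On X, 4 regions stood between 120738829 and 120781542 (42.7 kb) with no peak of another list between them, the nearest Suz12 peak at 8.91 kb and the nearest Ring1B peak at 413.4 kb. The other run of X, 3 regions from 121209994 to 121292350 (82.4 kb), also held no peak of another list, with Ring1B at 13.9 kb.

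**Figure D5:**
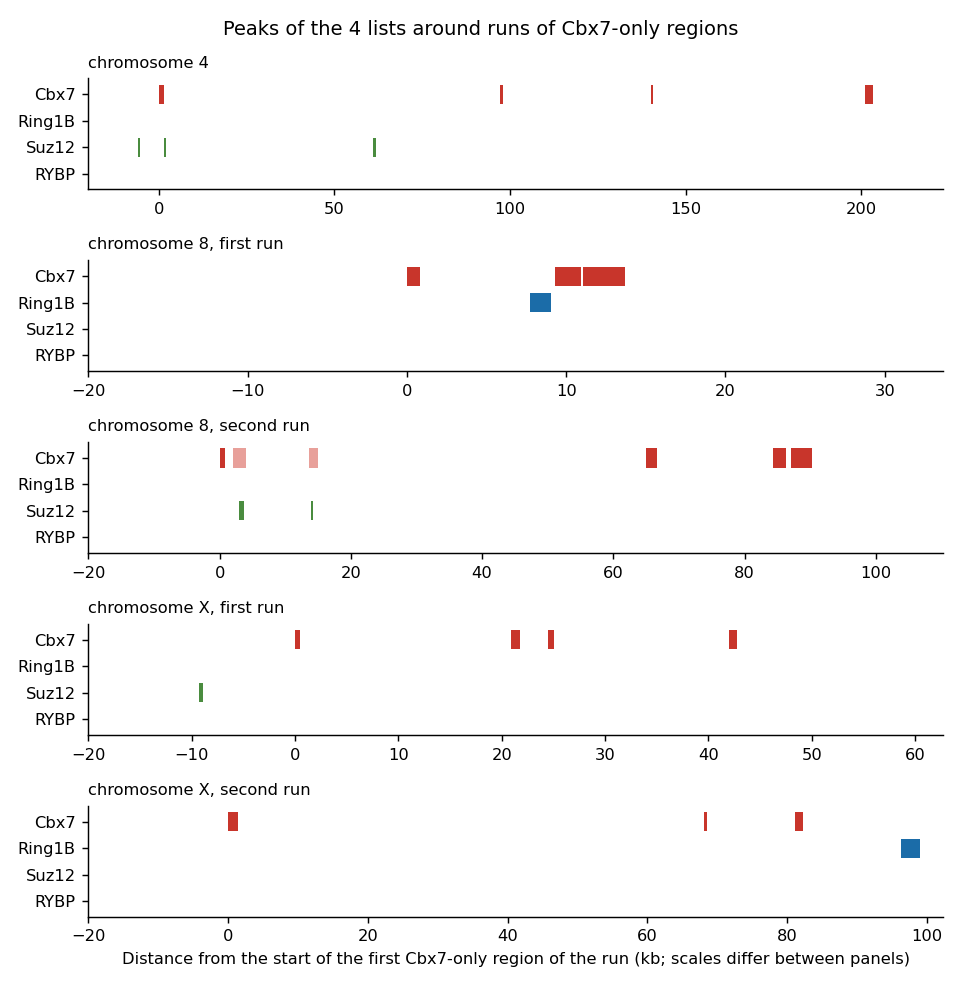
Peaks of the 4 lists around the 5 runs of Cbx7-only regions, by distance from the start of the first region of each run (horizontal, kb, a different scale in each panel). Dark red blocks are Cbx7-only regions, pale red blocks other Cbx7 peaks, and the other colours Ring1B, Suz12 and RYBP peaks; no RYBP peak lies in any panel.

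Without the 19 regions in runs the description of the class was little changed. The share within 5 kb of Ring1B or Suz12 was 11.5% of 182, the isolated share 36.3% and the median width 603 bp. The difference in the share on X fell from 8.15 to 5.50 points and stayed called (adjusted p = 0.005, Fisher's exact test).

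Cbx7 peaks outside this class more often had another Cbx7 peak nearby, with Cbx7-only regions counted as possible neighbours. Another Cbx7 peak was found within 5 kb of 787 of the other 2553 Cbx7 peaks (30.8%, 95% Wilson interval 29.1 to 32.7%) and of 22 of the 201 Cbx7-only regions (10.9%, 7.34 to 16.0%). At 100 kb the shares were 49.7% and 33.3%. Cbx7 peaks that share a merged region are joined by a peak of another list, so the rule places them outside the class. Part of this difference is therefore fixed by the rule, and the shares were not tested.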

How the data were processed

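For each target the authors deposited a list of peaks, whose only values are the first and last base of each peak, with nothing on height or p. Bowtie 0.12.7, MACS 1.3.7.1 and build mm9 are named, without roles, per the submitters' processing notes. Which library served as control, and at what threshold, is not given in the sources used here. Each peak's name ends in 10, or in 5 in the RYBP list, which may mark a different stringency. Lists were matched to samples by target, and peaks of 1 list did not overlap each other.

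Width is end minus start as listed, and distance is the gap between the nearest edges. Shares have 95% Wilson intervals and differences Newcombe intervals; both cover the sampling of regions only, and depth is unknown. Differences were tested by two-sided Fisher's exact tests with Benjamini-Hochberg adjustment over 7 tests (6 without X and Y). The functions were tested on simulated data. Regions named are the 5 widest, the 5 nearest to and 5 farthest from another list, runs of 3 or more, and the 3 Cbx7 peaks with least overlap. The regions and comparisons were chosen with earlier results of these data known. Genes and sequence under the regions were not analysed here. Python 3.11.15, numpy 2.4.6, pandas 2.3.3, SciPy 1.17.1 and matplotlib 3.10.9 were used.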

Additional observations from a re-analysis of the deposited data

How the results depend on the processing

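Merging peaks within 1 kb gave 184 regions, lowered the share within 5 kb of Ring1B or Suz12 to 5.43%, and moved the differences to -0.127 points (Ring1B, against RYBP only), 1.07 (Suz12, against RYBP only), 0.601 (Suz12, against Ring1B only), -3.36 (RYBP, against Suz12 only) and -2.00 (RYBP, against Ring1B only); merging removes every gap of up to 1 kb by construction. Other lists of at least median width gave 413 regions, a median width of 828 bp and 53.8% isolated, with fewer peaks left to overlap or to measure to. Other distances changed the share near Ring1B or Suz12 to 6.97% (1 kb) and 39.8% (50 kb), and the isolated share to 47.3% (50 kb) and 19.9% (200 kb). Against RYBP only, the Ring1B difference was 2.21 points at 10 kb, -11.9 at 50 kb and 1.85 for regions up to 1000 bp wide, and the Suz12 difference was -4.60 at 50 kb and 3.87 up to 1000 bp wide. Against Ring1B only, the Suz12 difference was called at 1 kb (-5.71) and with 50% of the shorter peak shared (-7.07). The difference on X was -1.35 points for peaks up to 1000 bp wide; this setting and the removal of runs were chosen after seeing the data. Causes were not tested. Leaving out the Ring1B, Suz12 or RYBP list gave 213, 213 and 204 regions. Fewer Cbx7-only than Suz12-only regions lay near Ring1B in every setting run. No paired analysis was possible because each target had 1 library.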
